A study of Mus musculus with 11 samples.

Results

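The genes described here encode the prolyl and lysyl hydroxylases of collagen, the prolyl hydroxylases of hypoxia-inducible factor (HIF), and Ero1l, an oxidase of the endoplasmic reticulum. They are P4ha1, P4ha2, P4hb, Plod1, Plod2, Plod3, Ero1l, Egln1, Egln2 and Egln3, which were chosen by symbol from the 20475 genes listed in each of 2 expression tables. All 10 were found once in each table, and all 10 had a mean of at least 10 normalized counts in both. The choice was made with knockout values of the germline comparison known. Values of these genes in that comparison are therefore a description, and where they are counted against a threshold the count is no test of them.

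The study asked how gene expression changes in the embryonic mouse forebrain when Kif20a, a kinesin of cell division, is inactivated. Poly(A) RNA of embryos at embryonic day 12.5 was sequenced for 2 comparisons that do not share controls. The labels name the tissue forebrain and the cell type neural cell, and the study's methods name cortical cells. There were 3 wild-type and 3 knockout libraries of germline mutants, and 2 wild-type and 3 knockout libraries of inducible mutants. The labels do not say that replicates are separate animals, so p-values measure the spread between these samples. Germline knockouts were homozygous for a knockout-first allele, in which a LacZ-Neo cassette interrupts Kif20a in every cell, and their controls were wild-type littermates. Inducible knockouts were Nestin-CreERT2; Kif20a fl/fl embryos, and their controls are labelled wild type (Kif20a fl/fl littermates without the recombinase elsewhere in the study). Both inducible groups came from mothers that received tamoxifen at E9.5 and again at E10.5, and the germline groups received none. Nestin drives the recombinase in neural progenitors, and recombination in each cell type was not measured here. All mutant mice trace to a targeted embryonic stem cell line, and whether a library held 1 embryo or a pool is not given in the sources used here.

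The deposited values are read counts per gene, summed over exons and normalized by the authors between the libraries of a table, and are called normalized counts here. They are not divided by gene length. Each table was normalized on its own, so no level was tested across tables. Totals ran from 13048716 to 15551274 normalized counts in the germline libraries and from 24118520 to 24497307 in the inducible libraries, and after normalization they do not show read depth. A log2 fold change below is the knockout mean minus the wild-type mean of log2(normalized count + 1), which understates the change of weakly expressed genes. A gene passed both thresholds when it differed at least 1.5-fold with a limma P, before adjustment, no higher than 0.05, where limma fits a linear model to all tested genes at once.

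Collagen chains are hydroxylated in the endoplasmic reticulum while they are made. Prolyl 4-hydroxylase modifies prolines, which stabilizes the collagen triple helix, and lysyl hydroxylases modify lysines, which are used for cross-links and for attached sugars. The EGLN enzymes, also called prolyl hydroxylase domain proteins, hydroxylate the alpha subunits of HIF when oxygen is present, and the von Hippel-Lindau protein then marks these subunits for degradation. Both groups of enzymes need molecular oxygen, iron and 2-oxoglutarate, and several of their own genes are known targets of HIF.

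Libraries were compared before the genes. Kif20a itself had 2456, 2295 and 2680 normalized counts across germline wild-type libraries and 409, 374 and 503 in the germline knockouts. It had 4760.2 and 4844 in the inducible wild-type libraries and 3125, 2915 and 2853 in the inducible knockouts. Every library lay on the side its label gives, and the remaining signal was larger in the inducible knockouts, at 61.7% of the wild-type mean, than in the germline knockouts, at 17.3%. Germline knockout replicate 2 stood apart from the other germline libraries, at 91.2 on a first principal component that carried 58% of the variance, against -38.4 to 3.84 for the rest.

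Knockout replicate 2 also differed in markers of other cell types. The 14 cranial mesenchyme markers summed to 602 normalized counts in it, with Foxc2, Tbx18 and Twist2 at 0 and Col3a1, the most abundant of them in the other libraries, at 2.46. The same sum was 7779, 5388 and 9504 in the wild-type libraries, 23018 in knockout replicate 1 and 11732 in knockout replicate 3. Thus 2 of the knockout libraries lay above the wild-type range for mesenchyme markers and 1 lay far below it. The 10 microglia and macrophage markers summed to 18.7 in knockout replicate 2, with Mrc1 at 0, and to between 671 and 1184 in the other 5 libraries. The 10 endothelial markers summed to 787 in that library and the 6 pericyte markers to 152, against 1539 to 3527 and 573 to 1182 in the others, with Kdr and Pdgfrb the most abundant. The 10 erythroid markers, with Hba-a1 the most abundant, summed to 23815 in it and to between 67818 and 116360 elsewhere.

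Markers of the labelled tissue were present in all 11 libraries. The 12 cortical progenitor and neuron markers, with Dcx the most abundant in the germline and Tubb3 in the inducible libraries, summed to 44211, 47212 and 44198 normalized counts across germline wild-type libraries and to 25572, 88567 and 30875 in the knockouts. Knockout replicate 2 was thus highest and the other knockouts were lowest. In bulk RNA, fewer cells of a type and less RNA per cell cannot be told apart. In the inducible comparison the cortical sum lay between 71798 and 78737 in all 5 libraries, and the mesenchyme sum was 20179 and 12742 across wild-type and 15159, 17671 and 17748 across knockout libraries. Ranges over the same 5 libraries were 4238 to 6342 for endothelial, 1215 to 2058 for pericyte, 1008 to 1434 for microglia and 96807 to 134180.0 for erythroid markers. Of all marker genes 0 passed both thresholds in the germline knockouts, and in the inducible knockouts the 4 Y-linked genes did, all higher.

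Y-linked genes differed between libraries as well. Their sum over 4 genes was 1714, 9.83 and 4582 normalized counts across germline wild-type libraries and 4.49, 0 and 1377 in the knockouts. Germline libraries with little Y-linked RNA were thus found in both groups. In the inducible comparison the sum was 1.96 and 4.24 across wild-type and 3209, 2389 and 3101 across knockout libraries, so sex and genotype cannot be told apart there.

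The promoters of 5 genes that were high in the same germline libraries, and of Egln2, which was not, are shown with the recognition letters of HIF marked. Sequences are from RefSeq on build GRCm38.p6, from 250 bases before to 50 bases after the annotated start, written 5′ to 3′ on the strand of the gene. Of the 10 genes, 9 were matched by symbol or gene ID, Ero1l under its current symbol Ero1a and Egln2 with 2 starts, which gave 10 promoters. Plod2 was not matched in the set of promoters used here, so its promoter is not shown. The motifs searched were ACGTG and GCGTG on both strands, so CACGT and CACGC were read as matches on the other strand, and the letters CACGTG hold an ACGTG on each strand. Matches are in capitals. P4ha1 is shown from chr10:59323046-59323345 on the plus strand, P4ha2 from chr11:54100674-54100973 on the plus strand, Ero1l from chr14:45318523-45318822 on the minus strand, Egln1 from chr8:124949205-124949504 on the minus strand, Egln3 from chr12:54203825-54204124 on the minus strand, and the first start of Egln2 from chr7:27166753-27167052 on the minus strand.
P4ha1: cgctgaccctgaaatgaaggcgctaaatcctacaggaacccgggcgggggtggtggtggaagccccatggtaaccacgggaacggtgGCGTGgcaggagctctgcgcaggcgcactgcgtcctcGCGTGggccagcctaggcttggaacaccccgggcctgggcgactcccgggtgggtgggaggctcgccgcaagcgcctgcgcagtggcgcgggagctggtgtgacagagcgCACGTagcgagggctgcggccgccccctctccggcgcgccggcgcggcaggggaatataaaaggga
P4ha2: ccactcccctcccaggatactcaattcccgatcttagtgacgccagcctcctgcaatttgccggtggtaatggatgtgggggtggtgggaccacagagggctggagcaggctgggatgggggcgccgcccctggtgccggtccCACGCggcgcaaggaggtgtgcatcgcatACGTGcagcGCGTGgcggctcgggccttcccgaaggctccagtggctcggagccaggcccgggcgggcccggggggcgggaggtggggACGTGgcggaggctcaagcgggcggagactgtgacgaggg
Ero1l: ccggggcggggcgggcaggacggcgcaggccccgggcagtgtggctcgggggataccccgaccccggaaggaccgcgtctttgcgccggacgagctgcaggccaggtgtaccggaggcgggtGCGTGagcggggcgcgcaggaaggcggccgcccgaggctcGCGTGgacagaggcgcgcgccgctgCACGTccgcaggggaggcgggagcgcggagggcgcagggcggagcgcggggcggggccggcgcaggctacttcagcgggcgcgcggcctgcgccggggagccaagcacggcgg
Egln1: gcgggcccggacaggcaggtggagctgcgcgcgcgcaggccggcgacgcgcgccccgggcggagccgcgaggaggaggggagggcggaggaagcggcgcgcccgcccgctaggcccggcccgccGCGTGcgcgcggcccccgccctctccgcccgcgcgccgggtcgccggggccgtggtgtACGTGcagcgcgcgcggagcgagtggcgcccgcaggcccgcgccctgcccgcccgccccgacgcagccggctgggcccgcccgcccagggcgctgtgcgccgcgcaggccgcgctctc
Egln3: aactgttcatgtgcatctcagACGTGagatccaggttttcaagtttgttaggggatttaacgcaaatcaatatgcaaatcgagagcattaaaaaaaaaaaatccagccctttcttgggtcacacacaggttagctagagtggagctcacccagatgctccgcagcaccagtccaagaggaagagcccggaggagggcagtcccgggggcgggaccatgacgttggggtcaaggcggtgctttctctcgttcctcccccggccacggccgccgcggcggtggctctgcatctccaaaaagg
Egln2: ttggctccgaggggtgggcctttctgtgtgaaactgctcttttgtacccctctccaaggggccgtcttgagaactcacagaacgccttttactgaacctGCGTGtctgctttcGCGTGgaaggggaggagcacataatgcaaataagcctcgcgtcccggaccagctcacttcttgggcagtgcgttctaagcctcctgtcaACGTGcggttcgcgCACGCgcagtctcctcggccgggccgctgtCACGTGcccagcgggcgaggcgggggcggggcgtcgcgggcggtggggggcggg

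In P4ha1 the letters GCGTG began 163 and 126 bases before the start, and CACGT began 16 bases before it. P4ha2 had ACGTG at 78 bases before the start and at base 11 of the transcript, with GCGTG at 69 and CACGC at 107 bases before. Ero1l had GCGTG at 128 and 88 bases and CACGT at 63 bases before the start. Egln1 had GCGTG at 126 and ACGTG at 68 bases before the start. Egln3 had a single match, ACGTG at 229 bases before the start. Egln2 had 6 matches at its first start, the largest number among the 10 promoters, and 2 of them shared the letters CACGTG next to the start. ACGTG was found in 8 of the 10 promoters, GCGTG in 9 and either in all 10, among them those of P4hb, Plod1 and Egln2, which were not at least 2-fold high in those libraries. Of 32851 promoters of the same length in the table, 19.6% held ACGTG, 32.4% held GCGTG and 43.8% held either. A match describes the letters only, and binding was not measured here.

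Counted by the rule used for all genes, and not as a test, 4 of the 10 lay past both thresholds in the germline knockouts, P4ha1, P4ha2, Plod2 and Ero1l, all higher, and 0 were lower. Over all 13938 genes tested, 2.07% were higher and 0.667% lower by this rule. For P4ha1, P4ha2, Plod2 and Plod3 every knockout library lay above every wild-type library, a pattern that 5.9% of all tested genes had. For 0 of the 10 did every knockout lie below, against 7.55% of all genes, and chance gives 5% on each side. With Benjamini-Hochberg adjustment in limma 0.00717% of all tested genes passed 0.05, which was 1 gene, the targeted Kif20a itself. The count was 11 genes without knockout replicate 3, and 0 without knockout replicate 1 or any 1 wild-type library. The count of 4 became 3 without knockout replicate 2 (P4ha1, P4ha2 and Plod2), 1 without knockout replicate 1 or wild-type replicate 1, 2 without wild-type replicate 2 or 3, and 7 without knockout replicate 3. Nothing is read from these counts, since these values guided the choice of the genes.

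The knockout libraries differed among themselves. Counted against the wild-type mean, 6 of the 10 genes were at least 2-fold higher in the first knockout library, 7 in the second and 0 in the third. Over all tested genes these shares were 5.84%, 6.11% and 1.41%. The 6 genes high in replicate 1 were P4ha1, P4ha2, Plod2, Ero1l, Egln1 and Egln3, and replicate 2 added Plod3.

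**Figure D1:**
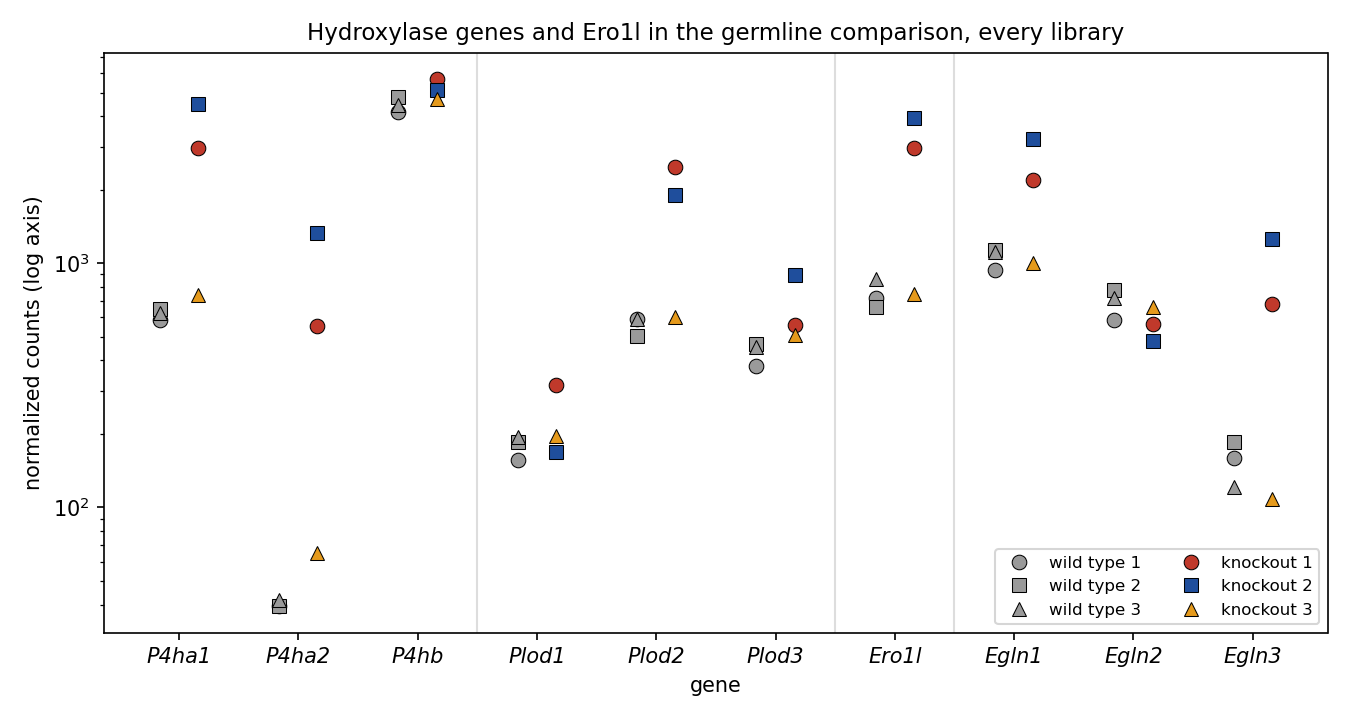
Normalized counts (log axis) of the 10 genes in each of the 6 germline libraries, with wild-type libraries in grey and each knockout library in its own color and shape. P4ha1, P4ha2, Plod2, Ero1l, Egln1 and Egln3 are high in knockout replicates 1 and 2 and lie near the wild-type libraries in replicate 3.

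P4ha1 encodes the main catalytic alpha subunit of collagen prolyl 4-hydroxylase, an enzyme of paired alpha and beta subunits. In NCBIM37, the assembly also called mm9 to which the reads were aligned, it lies on chromosome 10 from 58786044 to 58836052 on the plus strand. It had 585, 651 and 626 normalized counts across germline wild-type libraries and 2974, 4481 and 744 in the knockouts. Knockout replicates 1 and 2 were far above the wild-type range and replicate 3 was slightly above it, so the groups did not overlap. Means were 621 ± 33.5 and 2733 ± 1880 (SD, n = 3 each). Relative to the wild-type mean the 3 knockouts stood at 4.79, 7.22 and 1.197 times its level. Its log2 fold change was 1.79 (standard error 0.60). It was 1.26 without knockout replicate 2, the library that stood apart, 1.56 without replicate 1 and 2.56 without replicate 3.

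P4ha2, on chromosome 11 from 53913597 to 53945167 on the plus strand of NCBIM37, encodes an alternative catalytic subunit. It had 39.5, 39.4 and 41.7 normalized counts across wild-type libraries and 552, 1327 and 65.3 in the knockouts. All knockouts exceeded all wild-type libraries, and replicate 3 did so by the least, at 1.63 times the wild-type mean against 13.8 and 33.1 times in replicates 1 and 2. Its log2 fold change of 3.15 (standard error 0.98) was the largest of the 10 genes. It was 2.22 without knockout replicate 2, 2.85 without replicate 1 and 4.38 without replicate 3.

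P4hb encodes the beta subunit of the enzyme, protein disulfide isomerase, which also forms disulfide bonds in many secreted proteins. It had 4176, 4806 and 4447 normalized counts across wild-type libraries and 5670, 5109 and 4717 in the knockouts. Replicate 3 lay within the wild-type range and the others above it. On the log2 scale the change was 0.20 (standard error 0.13), against 1.79 for P4ha1 and 3.15 for P4ha2.

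Counts divided by exon length put P4ha1 and P4ha2 on 1 scale, and P4ha3, which encodes another alpha subunit, is not in these shares. Lengths were those of all GENCODE exons of a gene, whereas the study counted reads over RefSeq exons. Levels and shares per kilobase are therefore approximate between genes. The P4ha2 share of P4ha1 and P4ha2 together, in normalized counts per exon kilobase, was 4.26%, 3.83% and 4.203% in the wild-type libraries. It was 10.9%, 16.3% and 5.48% in the knockouts. P4ha1 thus made up most of this sum in every library, and the P4ha2 share was larger in each knockout than in each wild-type library. The sum of both, on the same scale, was 148.5, 165 and 159 across wild-type and 811, 1302 and 191 across knockout libraries.

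The lysyl hydroxylases are encoded by Plod1, Plod2 and Plod3. Plod2, whose product hydroxylates lysines in the telopeptides at the collagen ends, lies on chromosome 9 from 92437061 to 92503266 on the plus strand of NCBIM37. It had 593, 505 and 589 normalized counts across wild-type libraries and 2476, 1904 and 604 in the knockouts. Replicates 1 and 2 were high, with replicate 1 the higher, and replicate 3 lay just above the highest wild-type library. The log2 fold change was 1.34 (standard error 0.49). It was 1.12 without knockout replicate 2, 0.93 without replicate 1 and 1.95 without replicate 3.

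Plod3, whose product also adds sugars to hydroxylysine, had 381, 467 and 455 normalized counts across wild-type libraries and 559, 899 and 510 in the knockouts. All knockouts lay above all wild-type libraries, with replicate 2 at 2.07 times the wild-type mean. Its log2 fold change was 0.55 (standard error 0.24), and 0.30 without replicate 2. Plod1, whose product acts on lysines of the helix, had 157, 185 and 195 normalized counts across wild-type libraries and 317, 169 and 196 in the knockouts. It was high in replicate 1 alone, the library with the largest mesenchyme marker sum, and was within the wild-type range in replicate 2 and just above it in replicate 3. The log2 fold change of Plod1 was 0.30 (standard error 0.27), and 0.031 without replicate 1.

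Per exon kilobase, Plod2 made up 56.9%, 48.1% and 52.1% of the summed lysyl hydroxylase counts across wild-type libraries and 77.7%, 67.0% and 50.5% in the knockouts. Replicates 1 and 2 lay above the wild-type shares and replicate 3 within them. The Plod3 share was 33.8%, 41.1% and 37.2% across wild-type and 16.2%, 29.3% and 39.4% across knockout libraries.

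**Figure D2:**
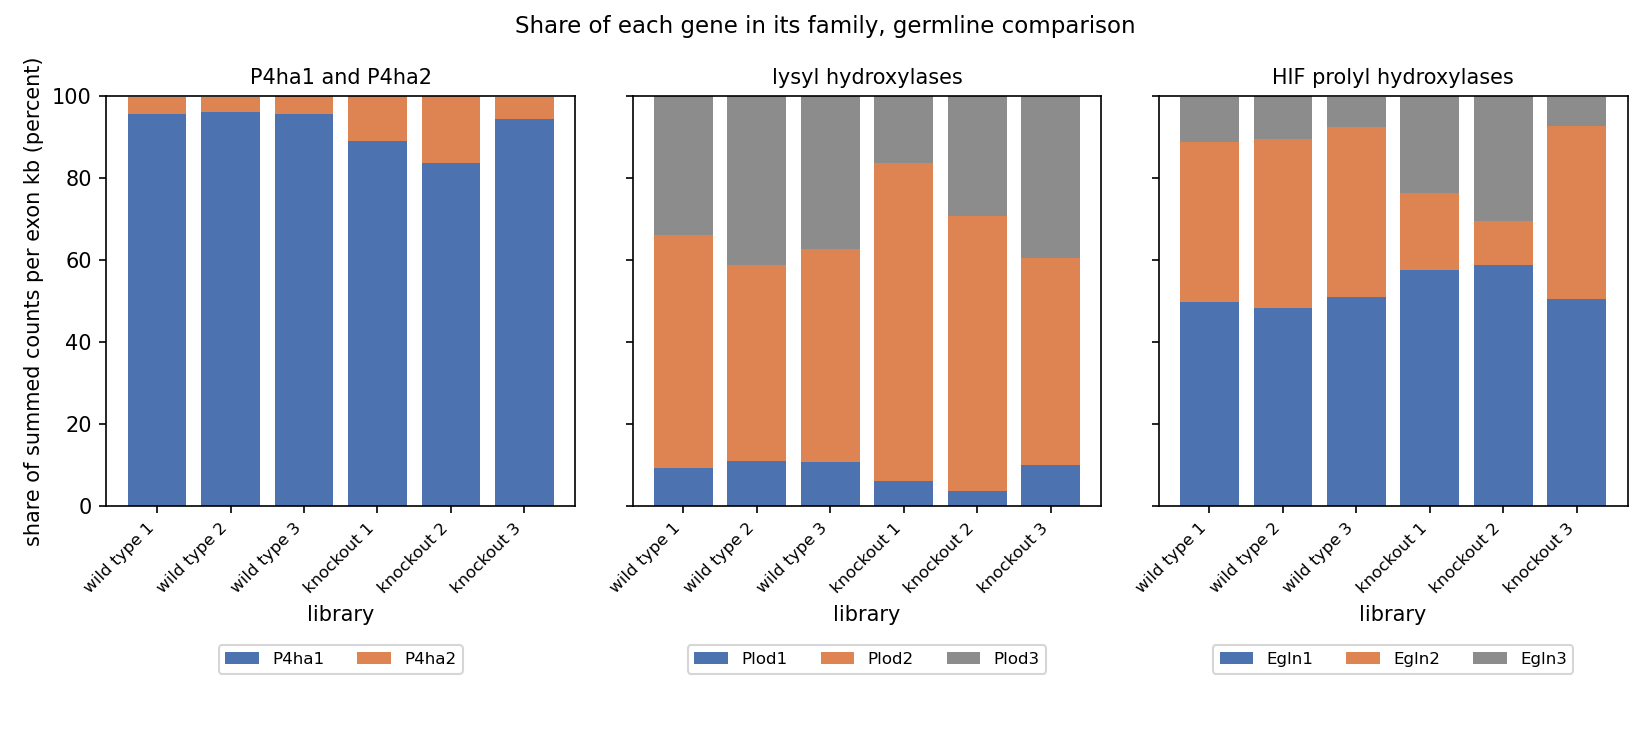
Share of each gene in the summed normalized counts per exon kilobase of its family, in percent, for each of the 6 germline libraries. P4ha2, Plod2 and Egln3 take larger shares in knockout replicates 1 and 2 than in any wild-type library, and the Egln2 share falls to 18.6% and 10.95% there.

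Ero1l encodes an oxidase that passes disulfide bonds to protein disulfide isomerase, the P4hb product, and hands electrons to oxygen. It lies on chromosome 14 from 45902879 to 45938237 on the minus strand of NCBIM37. It had 719, 660 and 861 normalized counts across germline wild-type libraries and 2960.4, 3948 and 752 in the knockouts. Replicates 1 and 2 stood at 3.97 and 5.29 times the wild-type mean, whereas replicate 3 lay inside the wild-type range, so the groups overlapped. Its log2 fold change was 1.47 (standard error 0.57). It was 1.01 without knockout replicate 2, 1.21 without replicate 1 and 2.20 without replicate 3.

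Among the HIF prolyl hydroxylases, Egln1 encodes the main regulator of HIF stability in most tissues. Egln1 had 940, 1138 and 1108 normalized counts across germline wild-type libraries and 2201, 3227 and 1001 in the knockouts. Replicates 1 and 2 were above the wild-type range and replicate 3 was inside it. Its log2 fold change was 0.86 (standard error 0.39), with 0.49 without knockout replicate 2 and 1.33 without replicate 3.

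Egln3, on chromosome 12 from 55279968 to 55304847 on the minus strand of NCBIM37, encodes the form whose RNA is known to rise most with low oxygen in many cells. It had 159, 185 and 121 normalized counts across wild-type libraries and 684, 1260 and 109 in the knockouts. Replicates 1 and 2 stood at 4.41 and 8.12 times the wild-type mean, and replicate 3 lay below the lowest wild-type library, at 0.70 times the mean. On the log2 scale the change was 1.57 (standard error 0.82). It was 0.83 without knockout replicate 2, 1.27 without replicate 1 and 2.60 without replicate 3.

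Egln2, which is not known as a HIF target, had 587, 777 and 720 normalized counts across wild-type libraries and 565, 479 and 662 in the knockouts. It was the only one of the 10 genes with a log2 fold change below 0, at -0.29 (standard error 0.18), and its lowest value was in replicate 2, where Egln1 and Egln3 were highest. Per exon kilobase, Egln2 made up 39.0%, 41.4% and 41.6% of the summed counts of the 3 genes across wild-type libraries and 18.6%, 10.95% and 42.1% in the knockouts. The Egln3 share was 11.1%, 10.4% and 7.35% across wild-type and 23.7%, 30.3% and 7.26% across knockout libraries. Replicate 3 was thus near the wild-type composition of this family, and replicates 1 and 2 were not.

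Marker values moved with these genes in some libraries and against them in others. P4ha1, P4ha2, Plod3, Ero1l, Egln1 and Egln3 were highest in knockout replicate 2, where the mesenchyme, microglia, endothelial, pericyte and erythroid sums were lowest and the cortical sum was highest, at 88567 normalized counts. P4hb, Plod1 and Plod2 were highest in replicate 1, where the mesenchyme sum was highest, at 23018, and the cortical sum lowest, at 25572. Germline wild-type replicate 2 had almost no Y-linked RNA, as had knockout replicates 1 and 2, and its values of these genes lay near those of the other wild-type libraries, with P4ha1 at 651 and Ero1l at 660 normalized counts. This is a single library, and the part of sex and of cell composition in the values of the 10 genes was not tested.

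**Figure D3:**
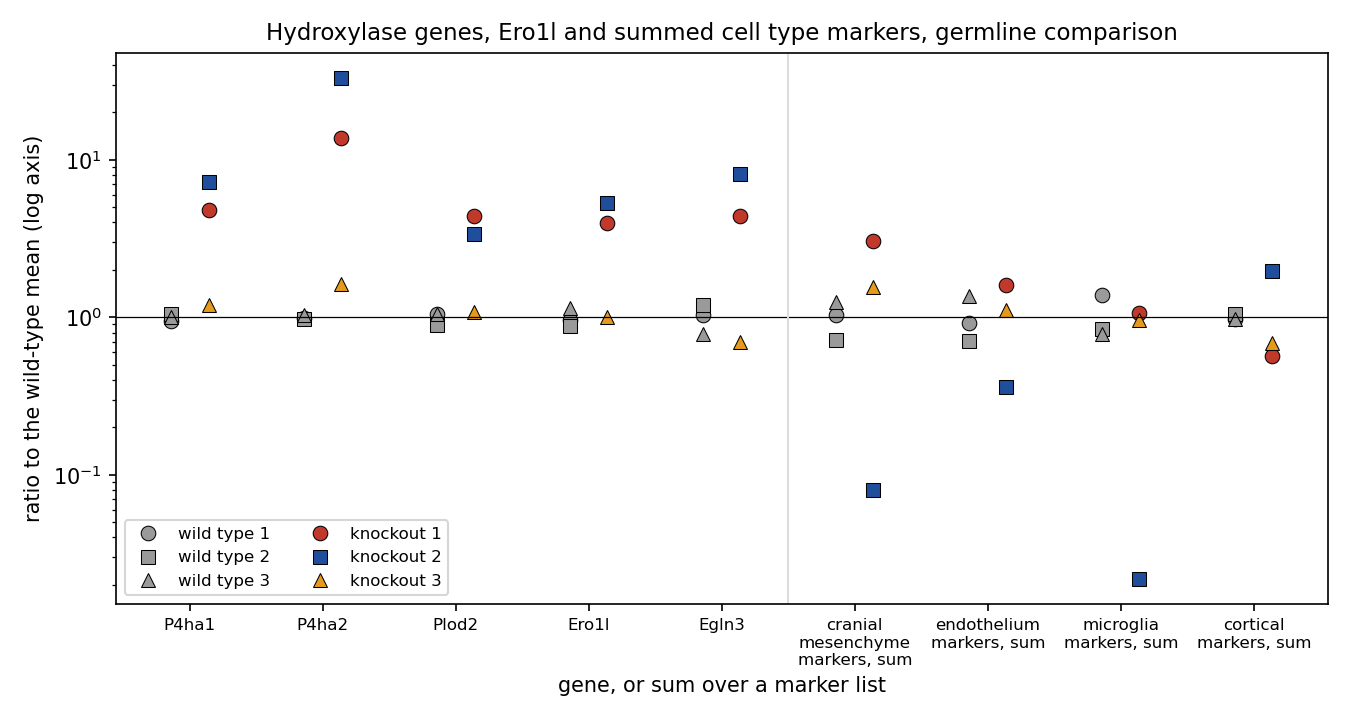
Ratio to the wild-type mean (log axis) for 5 of the genes and for the summed markers of 4 cell types, with a point for each of the 6 germline libraries. Knockout replicate 2 is highest for P4ha1, P4ha2, Ero1l and Egln3 and lowest for mesenchyme, endothelial and microglia markers, and knockout replicate 3 lies near the wild-type libraries for the genes.

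In the wild-type libraries alone, the order of levels per exon kilobase in the germline table was P4hb (1565 ± 111 normalized counts per kilobase, SD, n = 3), Egln1 (302 ± 30.4), Egln2 (248 ± 34.9), Ero1l (174 ± 24.1), P4ha1 (151 ± 8.14), Plod2 (134.5 ± 11.8), Plod3 (96.1 ± 10.3), Egln3 (58.3 ± 12.1), Plod1 (26.5 ± 2.91) and P4ha2 (6.44 ± 0.21). The ranges of Egln1 and Egln2 overlapped, as did those of Ero1l and P4ha1, and other neighbours in this order did not overlap. In the inducible table the wild-type order on the same scale began with P4hb (3539 ± 163, SD, n = 2), Egln1 (801 ± 35.1), Egln2 (595 ± 30.4) and Ero1l (293 ± 21.3). Plod2 (257 ± 26.6), P4ha1 (249.8 ± 24.4) and Plod3 (246 ± 5.10) followed with overlapping ranges, ahead of Egln3 (158 ± 20.1), Plod1 (81.0 ± 0.97) and P4ha2 (14.2 ± 0.72). P4hb was highest and P4ha2 lowest in both tables, which differ in scale.

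In the inducible knockouts none of the 10 genes passed both thresholds. The count was 0 higher and 0 lower, with 1 gene, Egln3, at an unadjusted P under 0.05 in limma, and over all 14081 tested genes 0.802% were higher and 0.49% lower. After Benjamini-Hochberg adjustment in limma 0 of the 10 and 0.0355% of all genes passed. Over all genes this was 5, and it was 15 with the pseudocount halved, 13 without a minimum and 18 with array weights. Every knockout library lay below every wild-type library for 2 of the 10, Plod1 and Egln3, against 12.2% of all genes, and above for 0, against 10.4%, where chance gives 10% on each side. None of the 10 genes was 2-fold from the wild-type mean in any knockout library. Over all tested genes 0.632%, 0.739% and 0.895% were at least 2-fold above that mean in knockout replicates 1, 2 and 3. At least 2-fold below it were 0.632%, 0.256% and 0.888%.

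Egln3 had 382 and 458 normalized counts across inducible wild-type libraries and 352, 333 and 352 in the knockouts. All knockouts were lower than both wild-type libraries. The log2 fold change was -0.27 (standard error 0.10), with an adjusted p of 0.825 from limma, and -0.14 without wild-type replicate 2. Its unadjusted P in limma was 0.0802 with the replicate block. Without knockout replicate 1, 2 or 3 this P was 0.0545, 0.0951 and 0.0479. Plod1 had 553 and 543 across wild-type and 472, 528 and 529 across knockout libraries, a log2 fold change of -0.11 (standard error 0.085) and an adjusted p of 0.884 from limma.

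P4ha1, P4ha2, Plod2 and Ero1l overlapped between the inducible groups. P4ha1 had 957 and 1098 normalized counts across wild-type and 920, 1003 and 927 across knockout libraries, a log2 fold change of -0.11 (standard error 0.082). P4ha2 had 91.6 and 85.3 across wild-type and 87.5, 102 and 82.9 across knockout libraries, a log2 fold change of 0.031 (standard error 0.16). Both are alpha subunits of the same enzyme. Plod2 had 993 and 1151 across wild-type and 964, 1045 and 932 across knockout libraries (log2 fold change -0.13, standard error 0.087). Ero1l had 1193 and 1322 across wild-type and 1303, 1254 and 1298 across knockout libraries (0.032, standard error 0.066). Both overlapped as well, and adjusted p-values from limma were 0.884 for P4ha1, 0.983 for P4ha2, 0.882 for Plod2 and 0.959 for Ero1l. Fold changes moved with single wild-type libraries, at -0.21 for P4ha1 and -0.23 for Plod2 without replicate 1, and -0.011 and -0.020 without replicate 2.

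P4hb, Plod3, Egln1 and Egln2 had log2 fold changes of -0.036, -0.058, -0.044 and -0.069 in the inducible knockouts, with standard errors from 0.054 to 0.070. Their groups overlapped. A P above the threshold does not show that the levels were equal, and the P4ha1 standard error was 0.082 from 2 and 3 libraries. The share of P4ha2 in P4ha1 and P4ha2 together, per exon kilobase, was 5.94% and 4.87% across wild-type and 5.90%, 6.27% and 5.57% across knockout libraries. The Egln3 share of its family was 9.34% and 10.9% across wild-type and 9.02%, 8.73% and 8.67% across knockout libraries. Whether the germline and inducible effects differ was not tested.

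**Figure D4:**
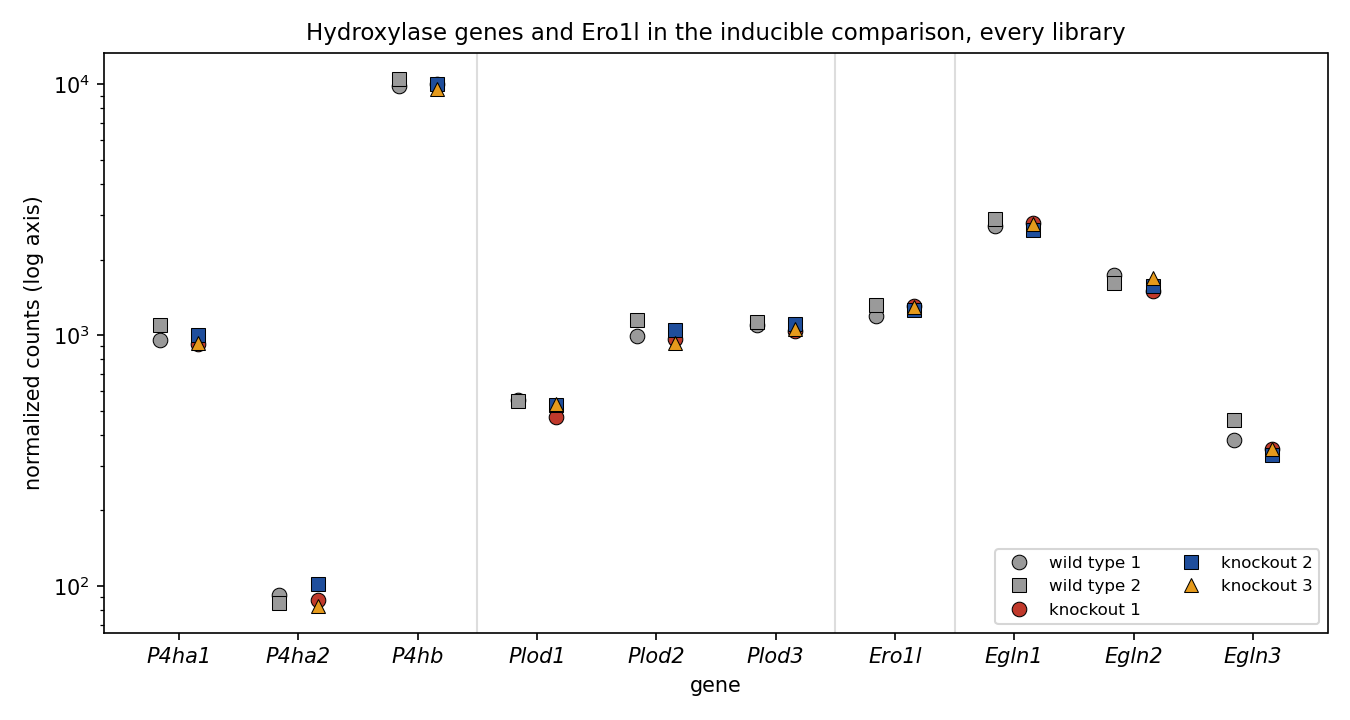
Normalized counts (log axis) of the 10 genes in each of the 5 inducible libraries, with wild-type libraries in grey and knockouts in color. The points of a gene lie close together, and Plod1 and Egln3 are the genes with all knockouts below both wild-type libraries.

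Other genes of these pathways were counted from lists written from general knowledge, with earlier results of these data known. Of 23 tested collagen-modifying and secretion genes, 3 passed both thresholds in the germline knockouts, all higher, with a list median log2 fold change of 0.24 against -0.043 over all tested genes. By library this median was 0.61 and 0.27 in knockout replicates 1 and 3, and -0.15 in replicate 2. Loxl2, a lysyl oxidase that cross-links collagen, had 234, 445 and 604 normalized counts across wild-type libraries and 2384, 1310 and 805 in the knockouts. It was above the wild-type range in every knockout, with a log2 fold change of 1.77 (standard error 0.47). P3h3, a prolyl 3-hydroxylase family gene, had 325, 274 and 343 across wild-type and 560, 688 and 411 across knockout libraries (log2 fold change 0.79, standard error 0.22), again without overlap. Colgalt2, a collagen galactosyltransferase, had a log2 fold change of 1.60 (standard error 0.60) with overlapping groups, and it no longer passed in the fits without wild-type replicate 1 or 2 or knockout replicate 1 or 2, or with a replicate block. In the inducible knockouts 0 of the 23 passed.

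Collagen chains, the substrates of these enzymes, passed for 3 of 19 genes in the germline knockouts, with 0 lower and a list median of 0.092. By library the median was 1.28 and 0.57 in knockout replicates 1 and 3, and -0.87 in replicate 2. Col2a1 is a cartilage collagen also made in early neuroepithelium. It had 1427, 1583 and 1829 normalized counts across wild-type libraries and 2338, 4031 and 2384 in the knockouts. The log2 fold change was 0.81 (standard error 0.23), and it was 0.56 without knockout replicate 2 and 0.54 with array weights. Col2a1 no longer passed in either of these fits. Col11a1 and Col12a1 had log2 fold changes of 0.75 and 1.17. Without knockout replicate 1 these were 0.48 and 0.62 and neither gene passed, nor did Col11a1 without wild-type replicate 1 or 2, or Col12a1 without wild-type replicate 1 or 3. Col11a1 did not pass with a replicate block either. Summed over the 19 chains, counts were 10902, 11875 and 18812 across wild-type and 33716, 9631 and 20383 across knockout libraries. The sum was thus lowest in knockout replicate 2, where P4ha1 and P4ha2 were highest. Col1a1, Col1a2 and Col3a1 of this list are also among the mesenchyme markers. In the inducible knockouts 0 of the 19 passed.

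The alpha subunits of HIF are the substrates of the EGLN enzymes, and they were listed with other HIF factors and regulators. Of these 19 tested genes 0 passed in either comparison, with medians of 0.0037 and -0.021. Hif1a, the oxygen-regulated alpha subunit, had 3077, 2942 and 3556 normalized counts across germline wild-type libraries and 3247, 3500.5 and 2854 in the knockouts. These ranges overlapped, and the log2 fold change of 0.0037 (standard error 0.13) changed sign when single libraries were left out. Arnt, the partner of the alpha subunits, had 840, 863 and 888 across wild-type and 1214, 1287 and 905 across knockout libraries, without overlap and with a log2 fold change of 0.38 (standard error 0.16). It was the 1 gene of the 19 with every germline knockout above every wild-type library, and 4 had every knockout below, Cul2, Siah1a, Tceb2 and Rbx1, against 5.9% and 7.55% of all tested genes. Epas1, another alpha subunit and also an endothelial gene, had 353, 68.5 and 238 in the knockouts against 170, 226 and 301 in the wild-type libraries. Its log2 fold change was -0.33 (standard error 0.58), and 0.36 without replicate 2. Vhl and Hif1an, which encode the von Hippel-Lindau protein and the asparaginyl hydroxylase of HIF, had log2 fold changes of -0.22 and -0.14.

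Known HIF target genes outside the hydroxylases passed for 24 of 46 tested genes in the germline knockouts, all higher, with a list median of 1.02. Over all tested genes 2.07% were higher. Earlier results of these data were known when the list was written, so nothing is read from its counts. Relative to the wild-type mean of log2 values, the list median was 1.46 and 1.59 in knockout replicates 1 and 2, and 0.054 in replicate 3. At least 2-fold above the wild-type mean were 34 of the 46 genes in replicate 1, 33 in replicate 2 and 0 in replicate 3, and below that mean were 2, 5 and 17. Of all tested genes, 5.84%, 6.11% and 1.41% were at least 2-fold above it in these libraries. Adm, a vasodilator peptide, had 11.4, 3.23 and 3.31 normalized counts across wild-type libraries and 302, 245 and 11.1 in the knockouts (log2 fold change 3.99, standard error 1.24). Bnip3, a mitophagy gene, had 420, 410 and 447 across wild-type and 4459, 6621 and 515 across knockout libraries (2.54, standard error 0.87). Slc16a3, a lactate exporter, and Stc2, a secreted glycoprotein, had log2 fold changes of 2.60 and 2.55. Adm no longer passed without knockout replicate 1, Bnip3 without knockout replicate 1 or wild-type replicate 1 or 2, and Stc2 without any single library but knockout replicate 3. The count of 24 fell to 3 without knockout replicate 1, to 5 without wild-type replicate 1, to 9 without wild-type replicate 2 and to 14 without wild-type replicate 3, and it was 18 without knockout replicate 2. After Benjamini-Hochberg adjustment in limma 0 of the 46 passed 0.05, and 4 did without knockout replicate 3. Over all tested genes 1 passed, and 11 did without knockout replicate 3.

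In the inducible knockouts 1 of 45 tested HIF target genes passed and 0 were lower, with a list median of -0.092 against -0.0019 over all tested genes. The gene was Ndrg1, a stress-response gene, with 31.5 and 26.7 normalized counts across wild-type and 46.6, 54.5 and 60.3 across knockout libraries. All knockouts were higher, with a log2 fold change of 0.86 (standard error 0.22) and an adjusted p of 0.739 from limma.

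Of 41 tested oxygenases that use 2-oxoglutarate outside the collagen and HIF hydroxylases, 2 passed in the germline knockouts, both higher. Kdm7a, a histone demethylase, had 1816, 1751 and 2045 normalized counts across wild-type libraries and 4254, 6469 and 1836 in the knockouts, a log2 fold change of 0.99 (standard error 0.42) with overlapping groups. Alkbh3, a DNA and RNA demethylase, had a log2 fold change of 0.62 (standard error 0.22). Kdm7a no longer passed without any single library but knockout replicate 3, nor did Alkbh3 without wild-type replicate 2 or 3 or knockout replicate 1 or 2. Nor did Kdm7a pass with the pseudocount halved or a stricter minimum, or Alkbh3 with array weights, at 0.57. In the inducible knockouts 1 passed, the X-linked histone demethylase Kdm6a, with 2591 and 2477 across wild-type and 1775, 1573 and 1571 across knockout libraries, a log2 fold change of -0.63 (standard error 0.071) and an adjusted p of 0.0605 from limma. The adjusted p of Kdm6a in limma was 0.0408 with the pseudocount halved, 0.0445 without a minimum and 0.0177 with array weights. With the replicate block it was 0.435, and without knockout replicate 1, 2 or 3 it was 0.0394, 0.417 and 0.135. The Y-linked sums differed between the same groups. Of 28 tested oxidative folding genes of the endoplasmic reticulum outside P4hb and Ero1l, 0 passed in either comparison, and their median log2 fold change was -0.041 in the germline and -0.0020 in the inducible knockouts.

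**Figure D5:**
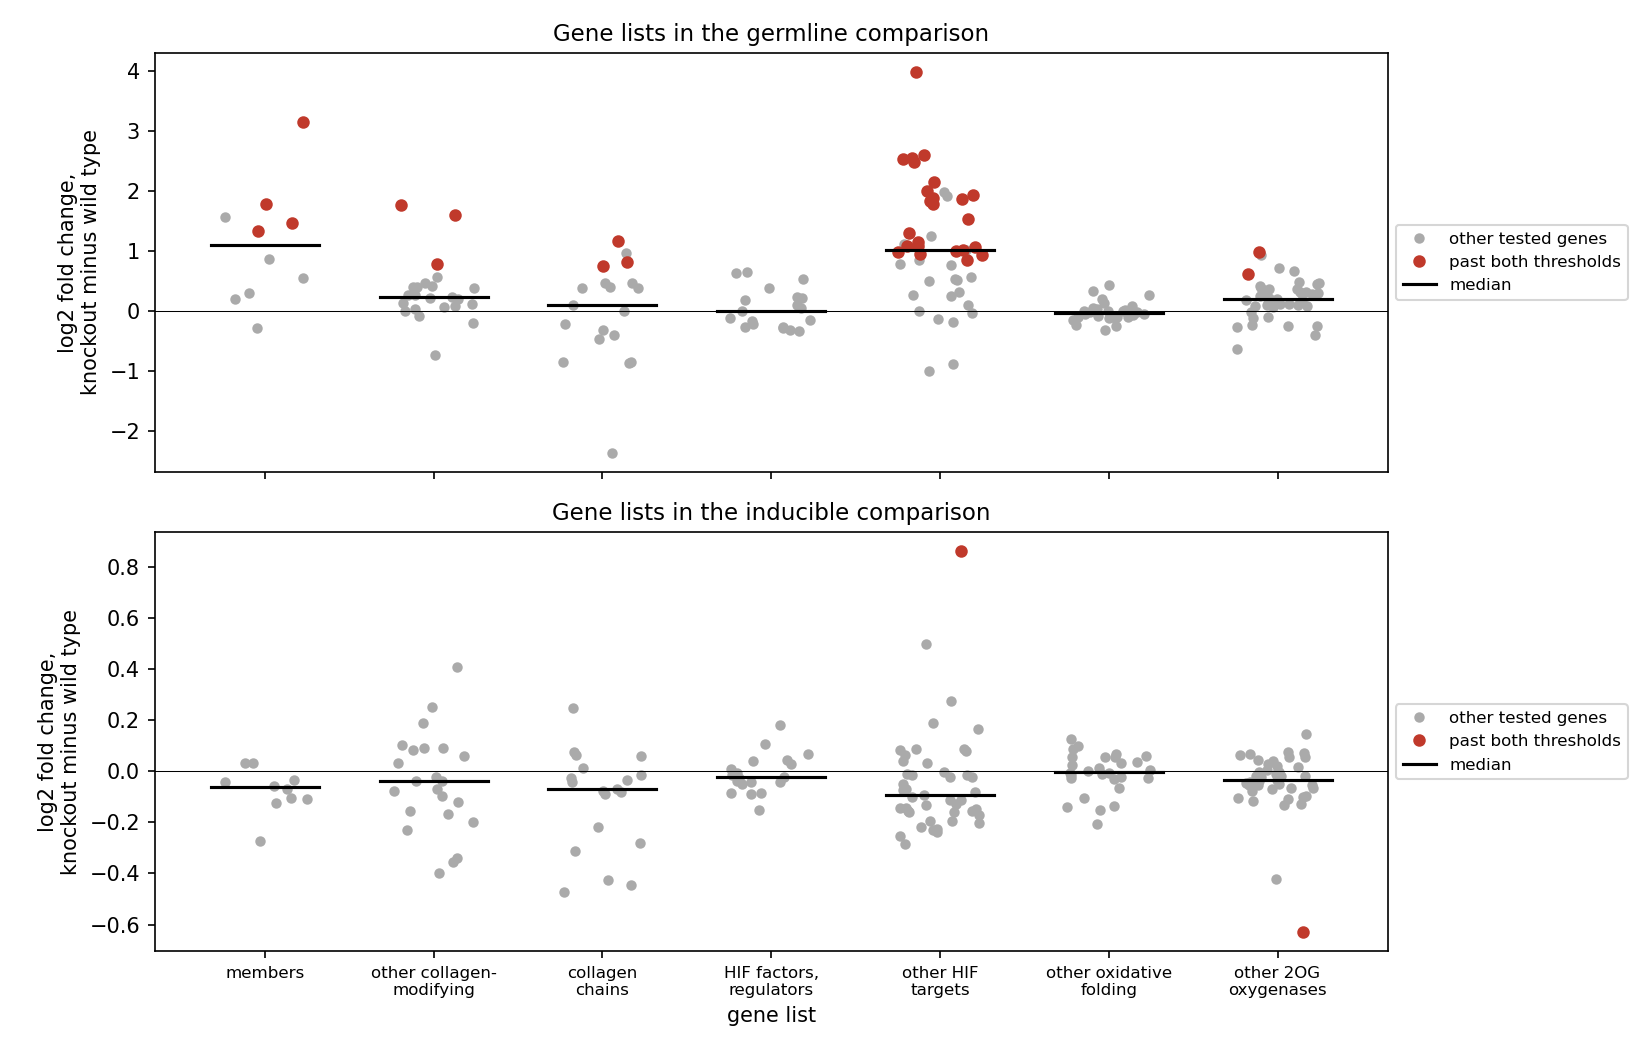
Log2 fold change (knockout minus wild type) of each tested gene of 7 lists, in the germline comparison above and the inducible comparison below, with separate vertical scales. Red points lay past both thresholds, which is no test of the 10 genes in the germline comparison, and black lines are list medians, which lie at 1.10 for the 10 hydroxylase and Ero1l genes and 1.02 for the other HIF targets in the germline comparison.

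The genes most like 4 of the 10 in the germline libraries were found by the root-mean-square difference in log2 deviation from the wild-type mean over the 6 libraries, among all tested genes. Nearest to P4ha1 were Pdk1 (0.122), Tnfaip3 (0.154), Slc2a1 (0.182), Aldoart1 (0.252) and Hk2 (0.254). Pdk1, a kinase that limits entry of pyruvate into mitochondria, had 817, 804 and 828 normalized counts across wild-type libraries and 4461, 5162 and 972 in the knockouts. Nearest to Plod2 were Proser2 (0.188), Tchh (0.256), Vldlr (0.273), Fosl2 (0.277) and 3110057O12Rik (0.281). Nearest to Ero1l were Aldoa (0.188), Aldoart2 (0.209), Proser2 (0.215), Aldoart1 (0.219) and Pdk1 (0.253), and nearest to Egln3 were Pfkfb3 (0.328), Ddit4 (0.337), Bhlhe40 (0.339), Ppp1r3g (0.340) and Rgs11 (0.356). Aldoart1 and Aldoart2 are near copies of Aldoa, so their counts are uncertain. Rgs11 had 5.32, 7.21 and 5.14 normalized counts across wild-type libraries. It reached the minimum mean of 10 only through the values of knockout replicates 1 and 2. Among the 10 genes themselves the closest pair was P4hb and Plod1 (0.236), followed by P4ha1 and Ero1l (0.265) and by Plod2 and Ero1l (0.285), and the most distant was P4ha2 and Egln2 (2.82). The measure is small for any 2 genes that change little, as P4hb and Plod1 did (log2 fold changes 0.20 and 0.30). Their closeness does not show that they varied together. Of the 20 entries named here 6 were shared without knockout replicate 1 and 5 without knockout replicate 2, the range over single omissions being 5 to 14.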

How the data were processed

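RNA of mouse embryonic forebrain was measured by sequencing in 11 libraries, 6 of a germline Kif20a knockout comparison and 5 of an inducible one. The signal values are normalized counts per gene as deposited. Per the labels, the authors used TopHat 1.2.0 for alignment to mm9, counted reads over exons and equalized the libraries of each table with edgeR. The values are not whole numbers and not divided by gene length, and read depth per library is not in the tables, so the precision given here rests on the number of libraries and the spread between them.

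Each table was fitted alone with limma 3.58.1 in R 4.3.3, with an intensity trend and two-sided tests, on log2 values after a pseudocount of 1. Tests covered genes whose mean over all libraries of a comparison, wild-type and knockout together, reached 10 normalized counts. A gene passed with a change of at least 1.5-fold and an unadjusted P of no more than 0.05, and adjusted p-values are Benjamini-Hochberg values over all tested genes. The pseudocount and minimum were set after the tables were read, since the design had not given their values. The procedure was tested on simulated data. Alternatives were other pseudocounts, minimums and scalings, array weights, a replicate block and leaving out each library.

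The 10 genes and the other gene lists were chosen with earlier results of these data known. Lists held 24 other collagen-modifying genes, 19 collagen chains, 19 HIF factors and regulators, 47 other HIF targets, 30 other oxidative folding genes, 44 other oxygenases that use 2-oxoglutarate, and markers of cortical cells, mesenchyme, endothelium, pericytes, erythroid cells, microglia and the Y chromosome. Named genes were the 10, Kif20a, list genes that passed (all where 5 or fewer did, otherwise the 4 with the largest change), 5 HIF factors, and the 5 genes nearest to each of P4ha1, Plod2, Ero1l and Egln3. Cul2, Siah1a, Tceb2 and Rbx1 were also named, as the HIF factors and regulators with every germline knockout below every wild-type library. Pdk1 was given with its counts after these were seen. Counts per kilobase used the merged GENCODE exons of NCBIM37, which can differ from the RefSeq exons over which the study counted reads. No level was compared between the tables.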

Additional observations from a re-analysis of the deposited data

Results flagged for a closer look

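For 10 of 30 named genes, every germline knockout library lay on one side of the wild-type mean and every inducible knockout library on the other, which marked them for a closer look. The 30 leave out Cul2, Siah1a, Tceb2 and Rbx1 and the genes nearest to P4ha1, Plod2, Ero1l and Egln3. Of the 10, 4 are hydroxylase genes. Of the 13735 genes tested in both comparisons, 1484 (10.8%) had this pattern. Most named genes were picked by their germline values, so nothing is read from their share, and the difference between the comparisons was not tested. Log2 fold changes were 1.79 in the germline and -0.11 in the inducible knockouts for P4ha1, 0.20 and -0.036 for P4hb, 1.34 and -0.13 for Plod2, and 0.55 and -0.058 for Plod3. Outside the hydroxylases they were 0.38 and -0.088 for Arnt, 1.77 and -0.23 for Loxl2, 0.81 and -0.44 for Col2a1, and 0.75 and -0.090 for Col11a1. Bnip3 had 2.54 and -0.20. Kdm6a, which is X-linked, had 0.31 and -0.63, and sex and genotype cannot be told apart in the inducible libraries.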

How the results depend on the processing

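The log2 fold changes of the 10 genes in the germline knockouts kept their direction under every alternative. In 135 of 140 values they moved by less than the fitted SD between replicates. The other 5 were without knockout replicate 3, at 2.56 for P4ha1, 4.38 for P4ha2, 1.95 for Plod2, 2.20 for Ero1l and 2.60 for Egln3. This SD is wide because the knockouts differed among themselves, so the 135 do not show stable sizes. Without knockout replicate 2, P4ha2 fell from 3.15 to 2.22 and Egln3 from 1.57 to 0.83, and both count among the 135. In the inducible knockouts 125 of 130 values kept direction. Leaving out a wild-type library there leaves 1, which is assumed to vary like the others.

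With all libraries the germline comparison had 289 genes higher and 93 lower. Array weights gave 560 and 484, and lower genes numbered 180 without a minimum and 60 with median-ratio rescaling. The inducible comparison had 113 higher and 69 lower, with 212 and 145 without a minimum and 39 and 33 with the stricter one, where more or fewer genes were tested. Its 1 HIF target became 0 under the stricter minimum. Of the 10 hydroxylase and Ero1l genes, 4 lay past both thresholds, 5 with quantile normalization or array weights (Egln1 added), 5 with median-ratio rescaling (Plod3 added) and 6 with the replicate block (Egln1 and Egln3 added). With the replicate block the germline comparison had 278 higher and 98 lower. Whether replicate numbers pair samples is not given in the labels. Between same-number libraries, deviations from the group mean had r of -0.116, 0.306 and 0.247 across genes, which are not independent replicates. Between different-number libraries r ran from -0.357 to 0.334, so these values cannot decide on pairing.

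Leaving out single libraries gave 115 to 617 germline genes higher and 42 to 642 lower, 1 to 7 of the 10 genes, and 3 to 34 HIF targets. The inducible ranges were 80 to 250 higher and 44 to 89 lower. Kif20a ranged from -2.66 to -2.44 in the germline and from -0.74 to -0.67 in the inducible knockouts.

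Among single list genes in the germline comparison, Kdm7a no longer passed with the pseudocount halved (0.99) or the stricter minimum, Alkbh3 (0.57) and Col2a1 (0.54) with array weights, and Colgalt2 (1.60) and Col11a1 (0.75) with the replicate block.

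Direction changed in the germline comparison for Hif1a, at -0.029 with quantile normalization, -0.063 with array weights and -0.063 to 0.084 without single libraries, and for Epas1, at 0.17 with array weights and -0.82 to 0.36 without single libraries. In the inducible comparison array weights gave -0.014 for Hif1a and 0.0090 for Vhl. Leaving out libraries there gave -0.046 to 0.043 for Hif1a, -0.034 to 0.0064 for Vhl, -0.024 to 0.38 for Epas1, -0.054 to 0.093 for P4ha2, -0.083 to 0.011 for P4hb, -0.042 to 0.11 for Ero1l and -0.088 to 0.00092 for Egln1. The cause was not tested.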
